A study of Zea mays with 24 samples.

Results

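The 94 genes described here, with 100 probes, were the brightly expressed ones on a maize microarray whose signal differed least between heat-stressed and control seedlings. They were chosen by 2 conditions on the measured values. The first was a signal well above background on all 24 arrays with a mean of at least 12 in the authors' table of log2 values, which 4131 of 133671 probes met. The second was rank: for each of these eligible probes the stress minus control difference was taken in each of 3 cytolines, the largest of the 3 absolute differences was kept, and the 100 probes with the smallest such value were selected. The 100 members belonged to 94 of the 107027 genes on the array, and 6 of these genes had 2 member probes. The heat differences and levels of the members in that table are therefore given as a description, with no test.

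Cytolines are maize lines that share the nucleus of one inbred line but differ in the origin of their cytoplasm, and so of their mitochondria and chloroplasts. The groups were cytTC221 stress, cytTC221 control, cytTC248 stress, cytTC248 control, TC243 stress and TC243 control, with 4 arrays each. TC243 was the nucleus donor and kept its own cytoplasm, and cytTC221 and cytTC248 carried its nucleus in other cytoplasms. The spelling cytTC248 follows the sample titles, while the study's paper writes cytT248, after its cytoplasm donor T248. Stressed seedlings had 20 days with light periods at 26 °C (16 h) and dark periods at 20 °C (8 h) before 24 h at 40 °C, and control seedlings had 21 such days without the 40 °C step. RNA of the leaves and stems of 3-leaf seedlings was labelled with 1 dye and hybridised to 1 array per sample. The study's methods name 3 harvested seedlings per line but 4 replicates per group, so the 4 replicates may not all be separate seedlings. No source says how the replicates relate to single seedlings, so p-values measure only the spread between these samples, which may be technical. For cytTC221 control, 3 of the 4 arrays carry the same replicate number in one of their labels, while the sample titles number them separately. The titles were followed, and these 3 arrays correlated with each other at 0.988 to 0.993 over the probes above background on all arrays, against 0.985 to 0.995 over all pairs within a group.

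Heat at this temperature makes plant cells produce chaperones and change the abundance of a large part of their transcripts. Transcripts that stay level through such a shift are of practical use as internal standards, and families such as actins, tubulins, ubiquitins and translation elongation factors are commonly taken for this purpose. A gene of the annotation can have several transcript models, and this array carried separate probes for many of them, so that a gene can be represented by probes that behave differently.

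On an array, 36.9% to 43.1% of the maize spots were well above background and none was saturated. Of 26 probes for C4 photosynthesis enzymes, rubisco small subunits and chlorophyll a/b binding proteins, which mark leaf tissue, 24 were above background on at least 1 array, against 5 of 23 probes for zeins, the storage proteins of the seed. Within each cytoline the stress and control arrays lay at slide positions of opposite parity, odd for one treatment and even for the other, so that heat and position cannot be told apart. Each cytoline as a whole had 4 arrays at odd and 4 at even positions.

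The selected probes lay at the low end of a broad distribution. The largest absolute stress minus control difference had a median of 0.16 on the log2 scale over the 100 members and of 1.19 over all 4131 eligible probes, of which 2376 (57.5%) exceeded 1. The members ran from 0.05 for GRMZM2G077897 to 0.1975, a change of at most 1.15-fold. Just inside the limit were GRMZM2G160428 T02 at 0.195 and GRMZM2G468693 T02 and GRMZM2G076337 T01 at 0.1975. Just outside it were GRMZM2G115948 T01, GRMZM2G172756 T02 and hda113 (GRMZM2G058573 T07), all at 0.2. The limit thus cut through a continuous range of values. On the slides that held a stress and a control array of the same cytoline, 2 for each cytoline, the median absolute difference between the 2 arrays was 0.13 to 0.18 over the members and 0.96 to 1.05 over the eligible probes. The selection used these arrays and this contrast, so nothing is read from that gap.

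**Figure D1:**
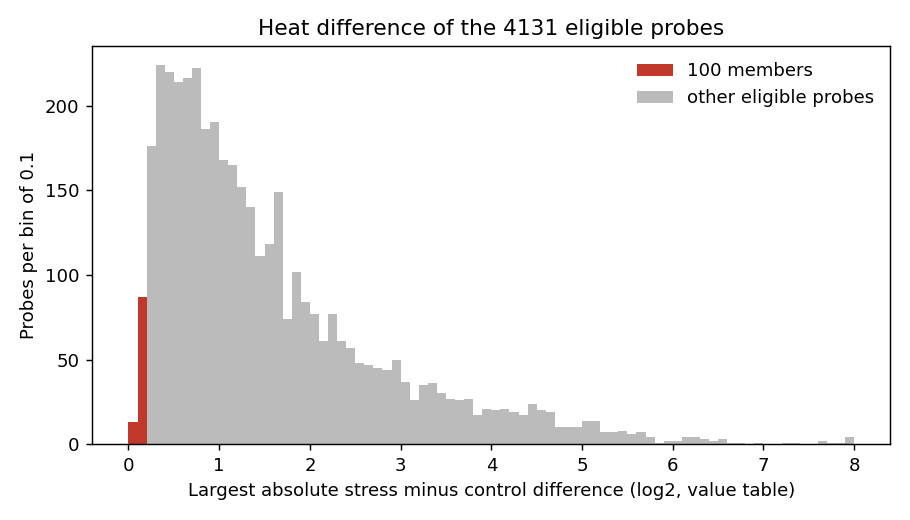
Number of eligible probes (y axis, bins of 0.1) by their largest absolute stress minus control difference among the 3 cytolines (x axis, log2, authors' value table). The 100 members, in red, fill the bins below 0.2, and the median of all 4131 probes is 1.19.

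GRMZM2G077897, for which no gene symbol was found, had the smallest heat difference. Its log2 values in the table were 12.28, 12.12, 12.43 and 12.29 on the cytTC221 stress arrays, against 12.33, 12.36, 12.25 and 12.37 on the control arrays. In cytTC248 they were 12.08, 12.22, 12.16 and 12.21 under stress, against 12.03, 12.07, 12.21 and 12.18 in control. In TC243 they were 12.18, 12.24, 12.06 and 12.21 under stress, against 12.14, 12.18, 12.07 and 12.31 in control. Stress and control arrays overlapped in all 3 cytolines, and the differences of the group means were -0.05, 0.04 and 0.00 in cytTC221, cytTC248 and TC243. The next 9 probes in rank were GRMZM2G066575, GRMZM2G148547, GRMZM2G152576, GRMZM5G819438, GRMZM2G031131, GRMZM2G030616, GRMZM2G003765, GRMZM2G077463 and GRMZM2G551207, whose largest absolute differences lay between 0.05 and 0.09.

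The small differences that remained had no common direction. Of the 100 members, 14 had a higher mean under stress in all 3 cytolines, 22 a lower one, and 64 differed in sign between cytolines. The largest of the 3 differences lay in cytTC221 for 42 members, in cytTC248 for 27 and in TC243 for 31. For 75 members the stress and control arrays overlapped in every cytoline. They did not overlap for 13 members in cytTC221, 11 in cytTC248 and 2 in TC243, against 79.3%, 82.6% and 80.8% of the probes above background on all arrays, and since the selection used these differences nothing is read from that contrast. GRMZM2G160428 had both of its member probes near the limit, and both were among the 22. Its T02 probe read 12.65, 12.94, 12.74 and 12.76 on the cytTC221 stress arrays, against 12.97, 12.93, 13.01 and 12.96 in control, so that 1 stress array reached into the control range. The differences of the means were -0.20 in cytTC221, -0.19 in cytTC248 and -0.19 in TC243.

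Agreement between replicate arrays was not a condition of the selection, but spread between arrays also moves the means that the selection compared. The standard deviation within a group of 4 arrays had a median of 0.11 over the members and 0.12 over the other eligible probes. Nothing is read from that gap. The standard deviation was not small for every member. The ribosomal protein gene rps28 (GRMZM2G030293 T02), which encodes a component of the small ribosomal subunit, had a standard deviation of 0.84 in cytTC248 control. The values there were 12.83, 12.85, 11.09 and 12.62, against 12.15, 12.07, 12.34 and 12.16 in cytTC248 stress. A single control array lay far below the others, and the difference of the means, -0.17, was small with that array included. The highest standard deviation of any member in a group was 0.88.

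Few members carried a gene name. Of the 94 genes, 46 had an entry in the RefSeq gene table and 48 had none, a share of 48.9% with an entry against 50.6% of the 3106 eligible genes. Those with a symbol in it were sh1, PPCK2, cax1, rps28 and PHD30. The gene sh1 encodes a sucrose synthase, which cleaves sucrose into fructose and UDP-glucose, and PPCK2 a kinase that phosphorylates phosphoenolpyruvate carboxylase (PEPC). The product of cax1 is a calcium and proton exchanger of the vacuolar membrane, and PHD30 belongs to a family with a PHD finger, a domain that binds histone tails in many proteins. In the table, PPCK2 T01 differed by -0.11, -0.07 and -0.10 in cytTC221, cytTC248 and TC243, and PHD30 (GRMZM2G091265 T06) by -0.15, 0.15 and -0.18. Other PHD30 probes above background on all arrays moved more. T05 differed by 0.96, 1.05 and 1.24, T04 by 0.77, 1.03 and 1.23, and T01 by -0.29, -0.27 and -0.41. The mean level of the members in the table lay between 12.02 and 18.17, with 49 below 13, 21 between 13 and 14 and 30 at 14 or above.

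Both member probes of a gene could be set side by side for 6 genes, namely sh1, cax1, GRMZM2G071768, GRMZM2G155954, GRMZM2G076597 and GRMZM2G160428. For cax1 the stress minus control differences of T03 and T02 were 0.13 and 0.15 in cytTC221, 0.07 and 0.05 in cytTC248, and -0.14 and -0.08 in TC243. In T02 the 4 cytTC221 stress arrays read 13.25, 13.24, 13.33 and 13.18, against 13.17, 13.10, 13.07 and 13.07 in control. These groups did not overlap, although the difference was within the limit of the selection. Other probes of some of these genes moved more. GRMZM2G160428 T01 differed by -1.16, -0.95 and -0.97 in cytTC221, cytTC248 and TC243, with no overlap in any. On 12 arrays above background each, cax1 T01 differed by -0.85, -0.80 and -0.98, and GRMZM2G076597 T04 by 0.73, 0.94 and 1.12. Those of GRMZM2G071768 and GRMZM2G155954 differed by at most 0.32.

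How still the members appeared depended on the values used. The deposited table behaved as if its arrays had been brought to one common distribution within each cytoline: sorted values of 2 arrays differed by at most 0.05 within a cytoline and by up to 0.18 between cytolines. The scanner intensities, corrected for background and divided by each array's 75th percentile before taking log2 (below, scaled values), gave a median over the members of the largest absolute difference of 0.25, with a range of 0.02 to 0.75. Of the 100 members, 33 stayed at or below 0.1975. The median stress minus control difference over the members in scaled values was 0.10 in cytTC221, 0.15 in cytTC248 and 0.12 in TC243, against 0.08, 0.39 and 0.19 over all 64523 probes tested.

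**Figure D2:**
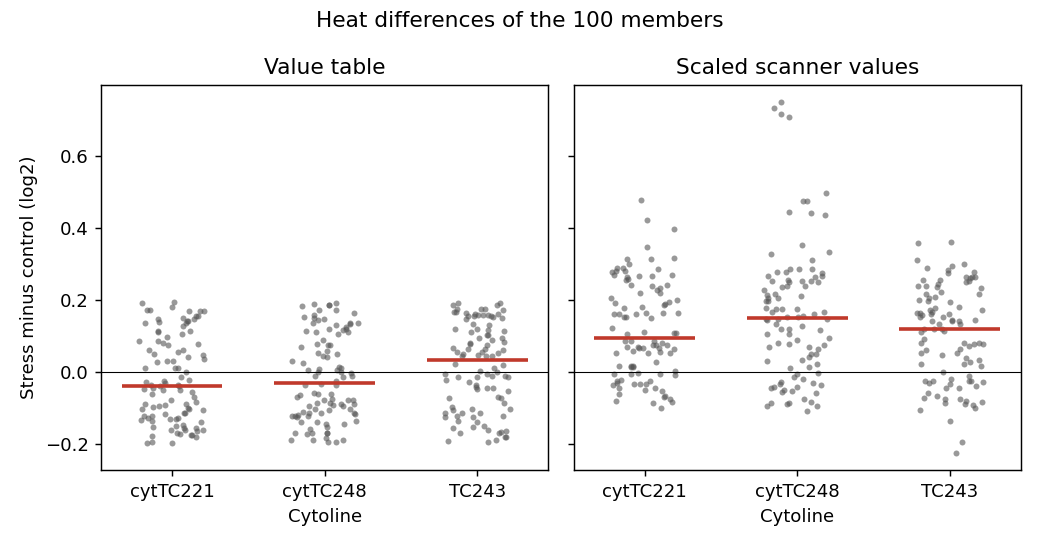
Stress minus control difference of each of the 100 members (log2, y axis) by cytoline (x axis), in the authors' value table on the left and in the scaled scanner values on the right, with the median as a bar. In the table all values lie within 0.2 of 0 because they were selected so, and in the scaled values they reach 0.75 in cytTC248.

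With limma on the scaled values, the fit called 12 members higher under stress in cytTC221, 16 in cytTC248 and 10 in TC243 at an adjusted p below 0.01, and none lower. Of all 64523 probes tested, 73.8%, 80.4% and 77.6% were called in either direction in these cytolines, and as the selection used this contrast the counts are a description only. The direction rests on the scaling. With quantile normalization no member was called in any cytoline. With the 75th percentile taken over all maize spots, members called higher and lower numbered 4 and 0 in cytTC221, 3 and 34 in cytTC248, and 0 and 13 in TC243. With the scanner's own processed signal, 18, 23 and 16 members were called higher in cytTC221, cytTC248 and TC243, and 0 lower. Of all probes called with the scaled values, 53.4%, 63.6% and 57.6% were higher, against 46.9% to 52.7% in the fits with other scalings.

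In cytTC248 and cytTC221, but not in TC243, the table and the scaled values differed more for the brightest probes. For the 9 members with a mean of at least 16, the median stress minus control difference in cytTC248 was 0.50 in scaled values, with a range of 0.26 to 0.75, and 0.01 in the table. Over all 104 eligible probes of that brightness, the scaled difference exceeded the table's by a median of 0.48 in cytTC248, 0.20 in cytTC221 and 0.03 in TC243. Among the 4027 dimmer eligible probes this excess was 0.11, 0.12 and 0.09. GRMZM2G031131, sixth in rank, illustrates it. In the table it held the array's highest value on 6 of 24 arrays, and its 24 values took only 9 different levels, among them 18.12, 18.42, 18.42 and 18.12 in cytTC221 stress and 18.12, 18.12, 18.42 and 18.12 in cytTC221 control. In scaled values its mean was 7.88 ± 0.05 in cytTC248 stress and 7.15 ± 0.14 in cytTC248 control (SD, n = 4 each), a difference of 0.73, where the table gave 0.06. GRMZM2G510249 behaved alike, with a difference in cytTC248 of 0.72 in scaled values and 0.01 in the table.

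For several member genes, a different probe of the same gene moved strongly. Probe names carry 1 of 2 class labels, Sp or Xhy, whose meaning the sources used here do not give. Of the 100 members, 80 were Xhy and 20 Sp, and Xhy made up 83.2% of eligible and 64% of all probes. Of the probes described below, T05 of GRMZM2G164229 and T03 of sh1 were Sp. T03 and T01 of GRMZM2G035417, T02 and T01 of GRMZM2G100120, and T02 of GRMZM2G701288 and of sh1 were Xhy. The 94 genes had 120 further probes on the array, and 80 of these, from 34 genes, were above background on all arrays. Their largest absolute stress minus control difference in the table had a median of 0.44, with a range of 0.09 to 4.51, against a median of 1.13 over all probes above background on all arrays. It was under 0.5 for 42 of the 80, and at or below the members' limit for 3. It exceeded 1 for 19 probes of 13 genes and 2 for 10 probes of 7 genes. These differences come from the same arrays and contrast as the selection and were not tested.

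GRMZM2G035417 showed the widest gap between probes. Its member probe T04 read 14.12, 14.03, 14.25 and 14.04 on the cytTC221 stress arrays, against 14.07, 14.24, 14.29 and 14.21 in control. Its T03 probe read 14.18, 14.27, 14.04 and 14.29 under stress, against 10.30, 10.09, 10.27 and 10.40 in control. The stress and control arrays of T03 were far apart in every cytoline, with differences of 3.93 in cytTC221, 4.18 in cytTC248 and 4.49 in TC243, and T01 of the same gene differed by 3.96, 3.49 and 4.51.

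GRMZM2G100120 had a member probe, T03, at 12.34, 12.41, 12.48 and 12.27 in cytTC221 stress, against 12.35, 12.27, 12.13 and 12.06 in control, which overlap. In cytTC248 its groups did not overlap, at 12.14, 12.06, 12.15 and 12.07 under stress against 12.28, 12.26, 12.24 and 12.37 in control. The T02 probe of this gene read 12.66, 12.92, 12.36 and 12.47 in cytTC221 stress, against 8.73, 8.55, 8.99 and 8.83 in control, and T01 was higher under stress by 2.29, 2.20 and 2.18 in cytTC221, cytTC248 and TC243. Its T04 and T06 probes had lower means under stress, with differences of -0.18, -0.78 and -0.60 for T04 and -0.34, -0.98 and -0.64 for T06. In GRMZM2G164229 the strong difference was a fall: its member T03 differed by -0.08, 0.14 and 0.18 in the 3 cytolines, and its T05 probe by -3.33, -3.73 and -2.96. For T05 the cytTC248 stress arrays read 7.31, 7.37, 7.48 and 7.48, against 11.08, 11.19, 11.16 and 11.15 in control. In GRMZM2G701288 the T02 probe was higher under stress by 2.96, 2.48 and 2.88.

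**Figure D3:**
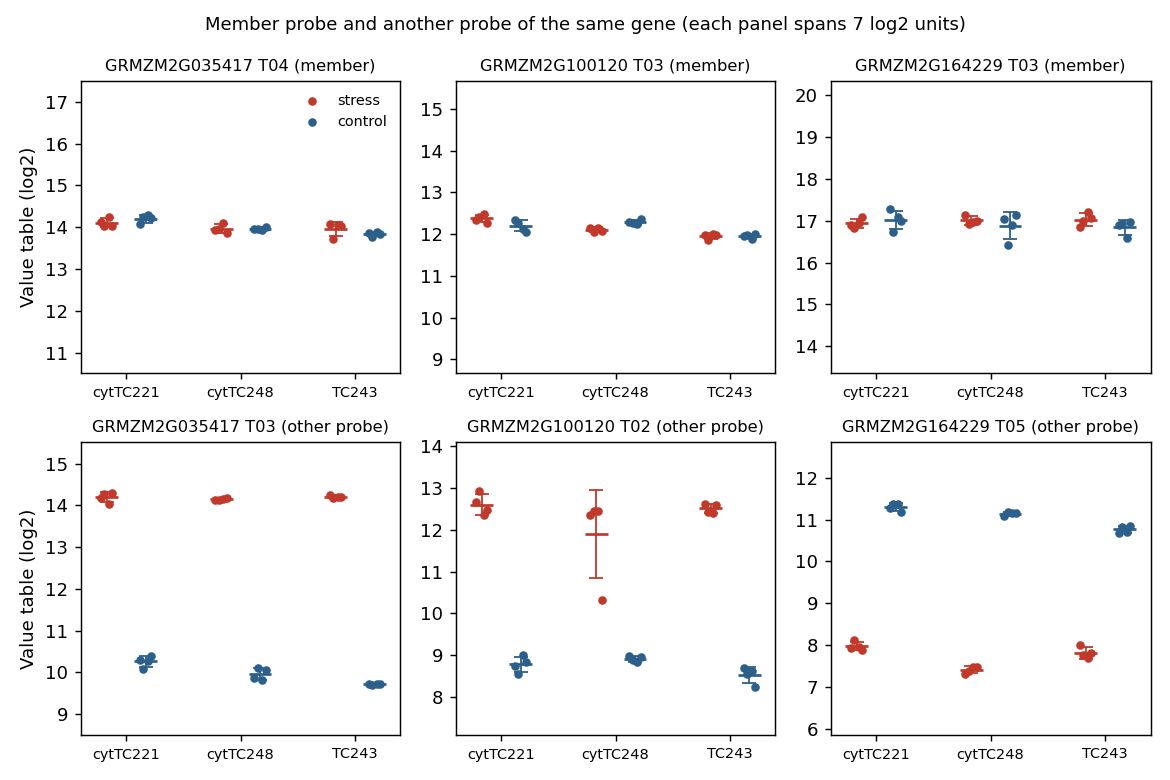
Log2 values in the authors' table (y axis) on each array by cytoline (x axis), stress in red and control in blue, with mean and SD (n = 4), for the member probe of 3 genes (top) and another probe of the same gene (bottom). All panels span the same number of log2 units but start at different levels, which are not to be compared between probes. The member probes differ little, although the groups of GRMZM2G100120 T03 do not overlap in cytTC248. GRMZM2G035417 T03 and GRMZM2G100120 T02 are higher and GRMZM2G164229 T05 lower under stress.

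The gene sh1 combined both patterns. Of its 7 probes, T05 and T07 were members, with differences of 0.16 and 0.17 in cytTC221, -0.12 and -0.11 in cytTC248, and -0.17 and -0.15 in TC243. Of the others, T01, T04 and T06 had largest absolute differences of 0.35, 0.24 and 0.25. T03, above background on 12 arrays, was higher under stress by 1.30, 0.94 and 0.82 in cytTC221, cytTC248 and TC243. The T02 probe read 11.19, 11.08, 10.88 and 11.35 on the cytTC248 stress arrays, against 7.02, 6.76, 7.11 and 6.96 in control. Its differences were 4.14 in cytTC221, 4.16 in cytTC248 and 3.99 in TC243, and no stress array overlapped a control array. What separates these probes in sequence was not examined.

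Probes of the families that hold members, and of other families of interest, were tested in the same fit. A probe of a family was counted as higher or lower under stress when limma on the scaled values called it so in all 3 cytolines, which held for 35.2% and 25.6% of all 64523 probes. Of 56 tested probes for cytosolic ribosomal proteins, 30 rose, 11 fell and 15 did neither, and the median stress minus control difference was 0.94 in cytTC221, 0.97 in cytTC248 and 1.14 in TC243, against 0.08, 0.39 and 0.19 over all probes tested. Probes that were above background in some groups alone could enter this count through the group where they were high. Among the 38 ribosomal probes above background on all arrays, 17 rose, 10 fell and 11 did neither, with medians of 0.48, 0.22 and 0.51, against 34% and 31.2% of all 37983 such probes rising and falling and medians of 0.01, 0.19 and 0.10. The T01 probe of rpl19 (GRMZM2G171444), a protein of the large subunit, rose by 4.43, 4.11 and 3.70 in these cytolines, and that of RPS27A (GRMZM2G431821), a fusion of ubiquitin to a small-subunit protein, fell by 2.95, 3.74 and 3.17. Of the list, 6 probes were eligible for selection and 1, rps28, was a member.

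Members made up 2.42% of all eligible probes. Of 89 tested probes of the gene families commonly used as internal standards, 35 were eligible and 0 were members. At a share of that size nothing is read from this 0, nor from those of the next lists. Of the 89, 32 rose, 37 fell and 20 did neither, and of the 70 above background on all arrays 21 rose, 33 fell and 16 did neither. Among 28 probes for translation factors, 14 of them eligible and 0 members, 11 rose, 10 fell and 7 did neither. Of the 24 above background on all arrays, 10 rose, 9 fell and 5 did neither. Of 23 tested probes for the leaf genes named above, 3 rose, 14 fell and 6 did neither, and of the 18 above background on all arrays 2 rose, 11 fell and 5 did neither. PEPC1 (GRMZM2G083841), the carboxylase that PEPC kinases phosphorylate, fell by 6.74 in cytTC221, 6.17 in cytTC248 and 6.40 in TC243. Of these leaf probes, 13 were eligible and 0 were members.

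Among 14 sucrose synthase probes of 3 genes, 4 rose, 4 fell and 6 did neither. Of the 13 above background on all arrays, 3 rose, 4 fell and 6 did neither. These probes include both sh1 members, which the selection had placed among probes with small differences. Of the 7 PEPC kinase probes tested, 0 rose, 2 fell and 5 did neither, the member PPCK2 T01 among the 5 for the same reason. The 2 that fell were both of PPCK1 (GRMZM2G178074), whose T01 probe fell by 3.82 in cytTC221, 4.30 in cytTC248 and 3.42 in TC243. PPCK2 stood apart from it in these values, with scaled differences of 0.11, 0.25 and -0.10 for its member T01 and of 0.10, 0.07 and -0.08 for its T02. The difference between PPCK1 and PPCK2 was not tested, because PPCK2 had been selected on this contrast.

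Whether the members also stayed level between cytolines is a separate question, since the average over stress and control of one cytoline minus that of another was not used to select them. It was tested on the scaled values with limma, at an adjusted p below 0.01. Of the 100 members, 26 probes of 25 genes were called in at least 1 of the 3 comparisons, against 40% of all 64523 probes, and 74 in none. Between cytTC221 and TC243, 24 members were called (35% of all probes), 13 of them higher and 11 lower in cytTC221 (13.2% and 21.8%). Between cytTC221 and cytTC248, 11 were called (21.6%), 9 higher and 2 lower in cytTC221 (8.26% and 13.3%). Between cytTC248 and TC243, 2 were called (10.6%), 1 higher and 1 lower in cytTC248 (4.4% and 6.15%). There 16 members had an unadjusted p below 0.05, and nothing is read from this count, as the share over all probes was not taken. Leaving out 1 array gave 1 to 3 calls in this last comparison. The 3 comparisons share groups. Among all eligible probes, which met the same condition on brightness, 32.3%, 21.5% and 10.7% were called in these comparisons. The difference of the members' shares from them was not tested. In bulk leaves and stems, fewer cells of a type and less RNA per cell cannot be told apart.

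The split by direction depended on the scaling. Between cytTC221 and TC243 it was 14 higher and 12 lower with quantile normalization, 24 and 5 with the 75th percentile over all maize spots, and 10 and 14 with the scanner's own processed signal. The split of all probes moved too: of those called, 48.3%, 51.1% and 45.2% were higher in cytTC221, against 37.7% with the scaled values. These fits shared 24, 18 and 20 of the 24 members called. Between cytTC221 and cytTC248 the splits were 10 and 4, 10 and 1, and 10 and 5. Of all probes called there, 49.2%, 49.9% and 50.5% were higher in cytTC221, against 38.3% with the scaled values.

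**Figure D4:**
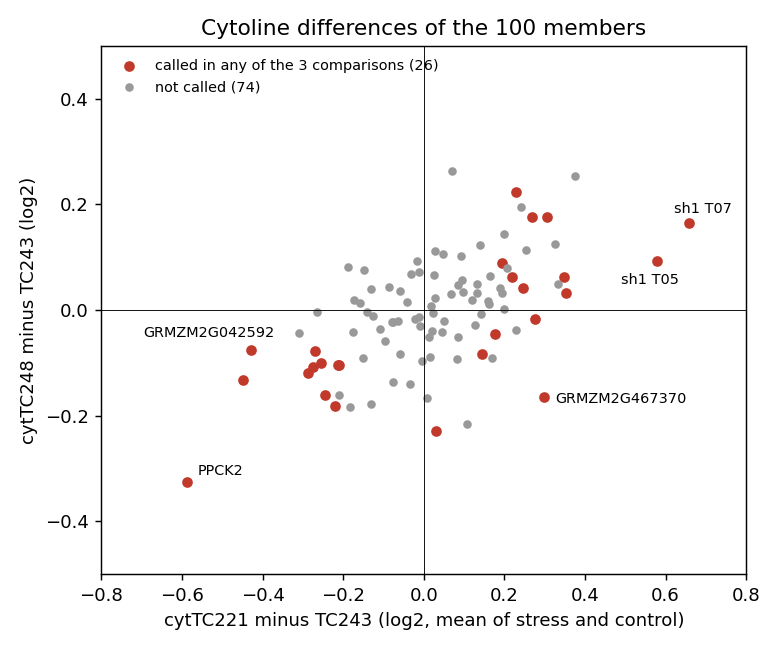
Difference between cytTC248 and TC243 (y axis) against that between cytTC221 and TC243 (x axis) for the 100 members, each the mean of stress and control in log2 scaled values. The 26 members called in any comparison are in red, and both sh1 probes (0.66 and 0.58) and PPCK2 (-0.59) lie farthest from 0 on the x axis.

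The largest cytoline difference among the members was that of sh1. Its T07 probe read 2.79, 3.10, 2.70 and 2.97 in cytTC221 stress and 2.51, 2.58, 2.61 and 2.67 in cytTC221 control. In cytTC248 it read 2.23, 2.24, 2.19 and 2.31 under stress and 2.20, 2.39, 2.28 and 2.14 in control, and in TC243 it read 2.15, 2.02, 2.11 and 1.97 under stress and 2.00, 2.17, 2.15 and 2.11 in control. Every cytTC221 array was above every array of the other two cytolines. The difference between cytTC221 and TC243 was 0.66 ± 0.06 (SE, limma adjusted p = 2.22e-09), and that between cytTC221 and cytTC248 was 0.49 ± 0.06 (adjusted p = 4.96e-07). On each of the 6 slides the cytTC221 arrays were above the TC243 arrays, by 0.44 to 0.86. No slide held both treatments of both cytolines, so these values per slide mix heat with the cytoline difference.

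The other sh1 probes bore on the same difference. T05, the second member, differed by 0.58 ± 0.05 between cytTC221 and TC243 (SE, limma adjusted p = 1.71e-09). Of the probes that were not members, T06 differed by 0.72 ± 0.07, T01 by 0.64 ± 0.13 and T04 by 0.60 ± 0.05, all called. T02, the probe with a large heat difference, differed by 0.30 ± 0.08 (adjusted p = 0.00327). T03, above background on 12 arrays, differed by 0.06 ± 0.08 and was not called.

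PPCK2 was lower in cytTC221. Its T01 probe read 4.04, 4.48, 3.97 and 4.15 in cytTC221 stress and 4.14, 4.08, 3.92 and 4.07 in cytTC221 control. In TC243 it read 4.73, 4.65, 4.53 and 4.65 under stress and 4.77, 4.64, 4.78 and 4.78 in control. All cytTC221 arrays were below all TC243 arrays, and the difference was -0.59 ± 0.09 (SE, limma adjusted p = 1.22e-05). On the 6 slides it was -0.65 to -0.37, again with heat and cytoline mixed within a slide. The arrays of cytTC248, between 3.76 and 4.71, overlapped both, and the difference between cytTC248 and TC243 of -0.33 ± 0.09 was not called (adjusted p = 0.0136). The T02 probe of PPCK2 differed by -0.65 ± 0.07 between cytTC221 and TC243 (adjusted p = 1.86e-07).

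Next in size came members with no gene symbol. GRMZM2G467370 T01 separated cytTC221 from cytTC248, at 1.87, 2.16, 2.24 and 2.16 in cytTC221 stress and 1.92, 1.84, 1.80 and 2.04 in cytTC221 control, against 1.58, 1.51, 1.41 and 1.60 in cytTC248 stress and 1.54, 1.58, 1.52 and 1.59 in cytTC248 control. The cytTC221 arrays were all above the cytTC248 arrays, by 0.46 ± 0.06 on average (SE, limma adjusted p = 9.41e-07). GRMZM2G042592 T01 lay between 1.34 and 1.45 on the 8 cytTC221 arrays, against 1.56 to 1.83 in cytTC248 and 1.70 to 1.99 in TC243. It was thus lower in cytTC221 than in both, by -0.43 ± 0.05 against TC243 (adjusted p = 1.13e-07). GRMZM2G165926 T02 was lower in cytTC221 than in TC243 by -0.45 ± 0.11 (adjusted p = 0.00152), but in its cytTC221 control group 1 array, at 2.58, lay below the other values of 3.08, 3.01 and 3.23.

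**Figure D5:**
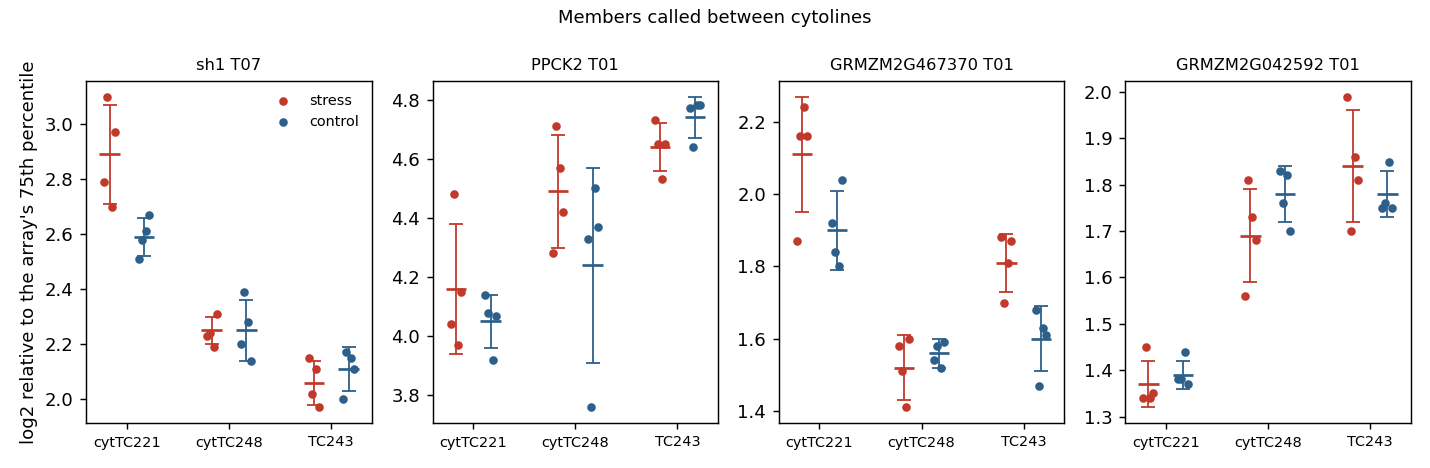
Scaled log2 value (y axis, relative to the 75th percentile of the array) on each array of 4 members by cytoline (x axis), stress in red and control in blue, with mean and SD (n = 4). The cytTC221 arrays lie above the others for sh1 T07, below TC243 for PPCK2, above cytTC248 for GRMZM2G467370 and below both for GRMZM2G042592.

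The remaining named members were higher in cytTC221 than in TC243, GRMZM2G701288 by 0.35 ± 0.06, GRMZM5G819438 by 0.35 ± 0.10, GRMZM2G148547 by 0.31 ± 0.07 and GRMZM2G388129 by 0.28 ± 0.07 (SE, limma adjusted p between 9.43e-05 and 0.00591). The call of GRMZM5G819438 was lost without any 1 of 8 arrays of cytTC221 or TC243. GRMZM2G100120 T03, the member probe of a gene with strongly moving probes, was called in both comparisons with TC243, at 0.23 ± 0.05 for cytTC221 and 0.22 ± 0.05 for cytTC248. It was the one member higher in cytTC248 than in TC243, and GRMZM2G155954 T03, at -0.23 ± 0.05, the one that was lower. Both calls between cytTC248 and TC243 were lost with the processed signal and with no filter on dim probes. Of the 24 members called between cytTC221 and TC243, 19 had the same sign on all 6 slides, where heat and cytoline are mixed.

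Other probes of the called genes mostly shared the members' direction between cytolines. Of the 23 genes with a member called between cytTC221 and TC243, 12 had at least 1 further probe above background on all arrays, 26 probes in all. Of these, 24 differed by at least 0.01 in the member's direction, 14 of them called. Of the other 2, 1 differed by less than 0.01 and 1 in the opposite direction, and neither was called. Probes of a gene can overlap in sequence, so they are not independent measurements.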

How the data were processed

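RNA of 24 maize seedling samples was hybridised to 24 one-colour Agilent arrays on 6 slides of 4. The authors deposited the scanner output, made with Feature Extraction 11.5.1.1 per the file headers, with linear median intensities of every spot and its surrounding background, a processed intensity and flags (0 or 1) for spots above background, saturated or outlying. The authors also deposited a table of log2 values, one per spot, whose normalization is not given in the sources used here. It followed the order of the median signal (Spearman's rho of at least 0.9999 on each array) without background subtraction, and its columns shared one distribution within a cytoline but not between cytolines, so it was used for the selection and for stress minus control values, never to compare cytolines.

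From the intensities, the median signal was background-corrected by normexp with an offset of 50, log2-transformed and reduced by each array's 75th percentile over the 46955 spots above background on all arrays. Outlier spots were left out, and spots of a probe were averaged. One member lost 2 arrays in this way. The 64523 probes that cleared background throughout 1 or more groups were fitted with limma 3.58.1 in R 4.3.3 (6 group means in 1 fit, Benjamini-Hochberg over all tested probes, adjusted p below 0.01), as the study's methods describe limma on the median signal with this threshold. A gene is the probe's transcript name without its transcript number, in an older annotation than that of the RefSeq table (assembly Zm-B73-REFERENCE-NAM-5.0), which gave names only, by symbols and synonyms, for 18817 of 107027 genes. The number of arrays limits the precision.

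The members and the gene lists were chosen with earlier results of these data known. Lists were filled by symbol, since the table gives no product names, and cover part of each family. Lists of proteasome subunits and cyclophilins could not be filled that way, and sucrose synthases and PEPC kinases were added because a member belongs to them. The genes named were the 10 members with the smallest heat difference, up to 10 with the largest called cytoline difference, genes with 2 member probes, list members, the 3 probes on each side of the limit, and up to 5 genes with the strongest other probes. GRMZM2G510249, GRMZM2G155954 T03 and GRMZM2G100120 T03 in the cytoline comparison, PHD30, and relatives of members were named after their values were seen. Replicate numbers recur across groups but did not pair the arrays (median correlation of deviations 0.02 for 60 pairs of the same number). Alternatives were quantile normalization, the percentile over all maize spots, the processed signal, other filters on dim probes, slide or replicate number as a block, other limits of the selection, and leaving out each array. Scripts were tested on simulated data. Probe sequences were not used here.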

Additional observations from a re-analysis of the deposited data

Results flagged for a closer look

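Among the 114 groups of 4 arrays whose values were examined for single probes, 9 held an array whose gap to the nearest other array, relative to the range of the group, was above Dixon's 95% critical value, where chance marks about 1 in 20. Outlying array values in the table were 12.99 for GRMZM2G160428 T02 (cytTC248 stress, replicate 2), 18.42 for GRMZM2G031131 T01 (cytTC221 control, replicate 3), 12.84 for cax1 T02 (GRMZM5G809587, cytTC248 stress, replicate 2), 11.09 for rps28 (GRMZM2G030293 T02, cytTC248 control, replicate 3) and 11.63 for the same probe (TC243 stress, replicate 2). Further ones were 13.71 for GRMZM2G035417 T04 (TC243 stress, replicate 2) and 10.32 for GRMZM2G100120 T02 (cytTC248 stress, replicate 4), which otherwise read 12.36 to 12.46. In scaled values they were 4.64 for PPCK2 T01 (GRMZM2G135091, TC243 control, replicate 2) and 1.45 for GRMZM2G042592 T01 (cytTC221 stress, replicate 2).

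In 4 of 92 probes of the member genes and their sucrose synthase and PEPC kinase relatives, every stress array was above every control array in one cytoline and below in another, in the table. This was 4.35% of them, against 4.06% of all 37983 probes above background on all arrays. PPCK4 (GRMZM2G049541) T01 differed by 1.61 in cytTC221, 0.84 in cytTC248 and -0.56 in TC243, and its T02 by 1.13 in cytTC221 and -1.73 in TC243. GRMZM2G071768 T01 differed by 0.13 in cytTC221 and -0.23 in cytTC248, and GRMZM2G468693 T05 by 0.45 and -0.15 in the same cytolines. The difference between cytolines was not tested.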

How the results depend on the processing

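Which probes are members depended on the values. Of the 100, 97 were kept when the rule ran on quantile normalized intensities, 34 on intensities at the 75th percentile, 26 on the processed signal, 53 with a mean of at least 11, 51 with a mean of at least 13 (the members that bright), and 84 to 95 when 1 array was left out. The median of their largest absolute difference was 0.161, moved to 0.279 in the processed signal, was 0.172 with the slide as a block and 0.161 with the replicate block (a fit chosen after seeing the data), and ran from 0.157 to 0.167 with 1 array left out. The number of members called in any cytoline comparison, 26, was 21 to 30 with 1 array left out and 27 with the replicate block, which moved no count by over 1.5 times. Between cytTC248 and TC243, 2 members were called, 1 with the percentile over all maize spots, 0 with the processed signal, 0 with no filter on dim probes, and 1 to 3 with 1 array left out (1 without replicate 3 of TC243 control or of TC243 stress, or replicate 1 of cytTC248 stress). The replicate numbers gave no pairing (correlations -0.10 to 0.06 between stress and control of a cytoline), and 25 members were called between cytTC221 and TC243 in the fit with that block. Of 496 recomputed differences of the 10 members with the largest called ones, 485 kept their call, 11 lost it and none changed sign. GRMZM5G819438 lost it in 10, with the processed signal (adjusted p = 0.0331), with no filter on dim probes (0.0118) and without replicates 2 or 3 of TC243 control, 1 of TC243 stress, 1, 2 or 4 of cytTC221 control, or 3 or 4 of cytTC221 stress. GRMZM2G148547 lost it with the processed signal (0.0117). With only probes above background on all arrays, 17 of 38 ribosomal and 21 of 70 reference-family probes rose, against 30 of 56 and 32 of 89 in the main fit. The cause of this and of the other shifts was not tested. The table of log2 values was not run for the cytoline comparisons, because its distribution differed between cytolines.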
